A study of Homo sapiens with 12 samples.

Results

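The 9 genes described here encode components of the interferon and cytokine pathway that runs from receptor to STAT: the receptor subunits IFNAR1 and IFNAR2, the kinases TYK2, JAK1 and JAK2, the transcription factors STAT2 and STAT3, and the feedback inhibitors SOCS1 and SOCS3. They were taken by gene symbol from a table of 62914 entries, 62588 of them with an Ensembl gene ID, and each symbol matched 1 entry. Expression was measured by RNA sequencing of oligo(dT)-selected RNA from THP-1, an established human monocytic leukaemia cell line, in 12 libraries forming 4 groups of 3. One group received 1 μg/mL of the cyclic dinucleotide 3'-3'-cGAMP for 8 h as a positive control for antiviral signalling, 2 groups received chlorquinaldol at 20 or 50 μM for 8 h, and 1 group was untreated, given in the design text as the 0 μM condition. cGAMP is a ligand of STING, through which cells answer to DNA in the cytosol, and chlorquinaldol is an antiseptic for the skin with a hydroxyquinoline core. All groups share the same cell line, no vehicle is named for the untreated cells, and no source says whether replicates were separate cultures, so p-values measure only the spread between these samples.

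Type I interferons bind a receptor made of IFNAR1 and IFNAR2, which carry the kinases TYK2 and JAK1. The activated kinases phosphorylate STAT proteins, and STAT2 joins IRF9 in the complex ISGF3, which binds interferon-stimulated response elements (ISRE) and switches on interferon-stimulated genes. JAK2 serves the interferon gamma receptor and receptors of cytokines such as GM-CSF. STAT3 is the main transducer of IL-6 family cytokines, whose shared receptor subunit is gp130, and it can raise SOCS3. SOCS1 and SOCS3 bind activated receptors or kinases and damp the signal. In monocytes this pathway converts an autocrine interferon signal, such as that released after STING activation, into an antiviral transcript programme.

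The stretch just upstream of the annotated start was read for 8 of the 9 genes from RefSeq (GRCh38.p14), with 250 bases a window and 15 windows in all, and IFNAR2 had no entry in the table used. Windows were searched on both strands for an ISRE core (GAAA, any 2 bases, then GAAA), for a gamma-activated site (the element bound by STAT dimers), TTCNNNGAA, and for a shorter core of interferon regulatory factor sites, AANNGAAA, which lies within the ISRE core. The ISRE core was found in the window of SOCS1 alone, as GAAAGAGAAA at 113 to 104 bases before the start site, and 3.02% of all 35116 RefSeq windows of this length held it. Of the 15 windows, 7 belong to RefSeq start sites within 126 bases of the GENCODE 29 start used for positions, 1 for each gene read but SOCS3, whose 2 windows belong to start sites 848 bases upstream of that start and 410 bases inside the gene. The most distant start sites were 57142 bases inside JAK2 and 101242 bases upstream of JAK1. None of the 15 windows held the gamma-activated site, against 6.57% of all windows. The shorter core was in the SOCS1 match and in 1 of 3 JAK1 windows (of a start site 432 bases upstream), against 20.31% of all windows. The upstream sequences below are those of the 3 genes with the largest rise after cGAMP and of IFNAR1, the receptor gene with the largest rise after chlorquinaldol. They are given 5′ to 3′ on the gene's strand, and capitals mark the ISRE core.
SOCS1, chr16:11256205-11256454, minus strand: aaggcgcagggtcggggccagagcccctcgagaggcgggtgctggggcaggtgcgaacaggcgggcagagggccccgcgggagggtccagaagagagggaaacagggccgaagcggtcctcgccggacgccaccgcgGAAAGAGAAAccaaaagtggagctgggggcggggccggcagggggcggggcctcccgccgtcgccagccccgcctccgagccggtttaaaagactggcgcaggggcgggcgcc
STAT2, chr12:56360156-56360357, minus strand: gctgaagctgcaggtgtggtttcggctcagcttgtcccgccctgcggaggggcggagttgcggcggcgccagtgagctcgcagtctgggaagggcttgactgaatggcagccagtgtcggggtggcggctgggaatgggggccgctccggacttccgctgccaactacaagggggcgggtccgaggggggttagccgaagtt
JAK2, chr9:4984140-4984389, plus strand: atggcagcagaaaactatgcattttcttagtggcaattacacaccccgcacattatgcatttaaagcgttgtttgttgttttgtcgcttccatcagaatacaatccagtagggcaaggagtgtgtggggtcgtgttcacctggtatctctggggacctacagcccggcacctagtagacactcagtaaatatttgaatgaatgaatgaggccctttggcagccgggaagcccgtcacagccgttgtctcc
IFNAR1, chr21:33324145-33324394, plus strand: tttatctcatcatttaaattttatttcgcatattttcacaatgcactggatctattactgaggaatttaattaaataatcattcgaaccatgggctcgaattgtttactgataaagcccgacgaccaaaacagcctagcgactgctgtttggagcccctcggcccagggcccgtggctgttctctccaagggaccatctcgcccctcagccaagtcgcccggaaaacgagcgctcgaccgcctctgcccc
The STAT2 stretch stops 48 bases before the RefSeq start site, where the longer annotated gene begins. A match says only that these letters are present, and a window without a match says only that they are absent from it.

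Libraries held between 17620929 and 19222607 gene-assigned counts. Levels of a gene across libraries are given in CPM, the counts scaled to a common library size with TMM factors, and levels between genes in the deposited FPKM, which divides by transcript length. A gene was called higher or lower at an adjusted p below 0.05 from edgeR's quasi-likelihood F test over 16628 genes, and log2 changes carry their standard error. All 9 genes passed the filter on low counts over the 12 libraries. In fits of only the untreated libraries and those of 1 chlorquinaldol dose, SOCS1 did not pass it. Library correlations were 0.9856 to 0.9912 within groups. With 3 libraries against 3, the smallest exact p for a single gene is 0.1, so the calls rest on the spread pooled over genes. Marker levels in this paragraph are CPM of the library total, without TMM factors. Of 12 monocytic marker genes, all were at 1 CPM or more in the cGAMP and untreated groups and 11 in each chlorquinaldol group, where MPO was below it. Their summed level was 1909 to 2052 CPM with cGAMP, against 1719 to 1772 CPM in untreated cells, and 1851 to 2047 CPM at 20 μM and 2123 to 2320 CPM at 50 μM. The sums hide single markers that moved in opposite directions with chlorquinaldol. LYZ averaged 252 and 203 CPM at 20 and 50 μM, against 487 CPM in untreated cells. ITGAX averaged 221 and 467 CPM, against 98.6 CPM, and CYBB 291 and 280 CPM, against 85.9 CPM. Each of 5 lists of markers of other blood cells, epithelium or fibroblasts summed to at most 15.2 CPM, with MS4A1, KRT19, COL1A2, HBB and HBG1 at 0 in every library. The 4 B cell markers summed to 5.11 to 5.71 CPM with cGAMP, against 6.79 to 7.39 CPM in untreated cells, and 10.8 to 14.1 CPM at 20 μM and 8.20 to 8.69 CPM at 50 μM, and their part in the results was not tested. In bulk RNA, fewer cells of a kind and less RNA per cell cannot be told apart.

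After cGAMP, 5 of the 9 genes were called, SOCS1, STAT2, JAK2 and STAT3 as higher and SOCS3 as lower, where 23.3% of all tested genes were called (11.6% as higher and 11.8% as lower). At 20 μM chlorquinaldol IFNAR1, IFNAR2 and SOCS3 were called as higher and no member as lower, where 55.1% of all genes were called (27.1% as higher and 28% as lower). At 50 μM, 8 of the 9 were called, where 66.9% of all genes were (32.2% as higher and 34.7% as lower): IFNAR1, IFNAR2, TYK2, JAK1, STAT3, SOCS1 and SOCS3 as higher and JAK2 as lower. The median log2 change of the 9 genes was 0.10 with cGAMP, 0.13 at 20 μM and 0.46 at 50 μM, beside −0.05, −0.0016 and −0.03 over all tested genes. The 3 comparisons share the untreated libraries. The share of members called at 20 μM lay below the background share.

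**Figure D1:**
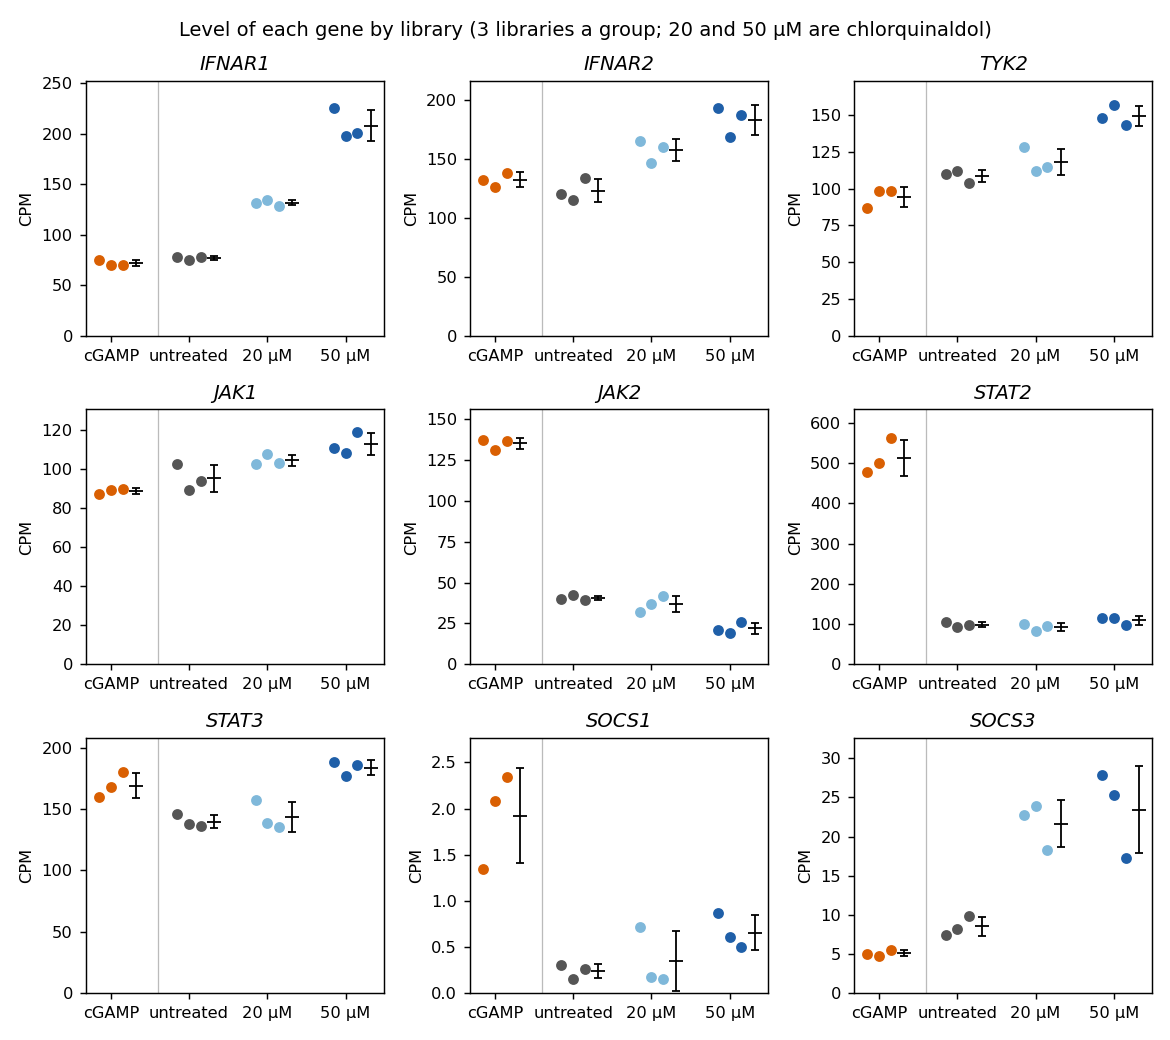
CPM of each of the 9 genes (y axis, from 0) in each library, by group on the x axis; points are libraries and the bar beside them is the mean ± SD (n = 3). JAK2 and STAT2 were high in the cGAMP libraries alone (131 to 137 and 477 to 562 CPM), IFNAR1 was highest at 50 μM chlorquinaldol (198 to 226 CPM), and SOCS1 stayed below 2.5 CPM throughout.

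Both receptor subunit genes were higher after chlorquinaldol, and neither was called after cGAMP. IFNAR1 (ENSG00000142166, chromosome 21, 33324477 to 33359862 on GRCh38, GENCODE 29), which encodes the subunit that docks TYK2, had 75.3, 70.5 and 70.6 CPM in the cGAMP libraries, against 78.0, 75.1 and 78.2 CPM in the untreated libraries. Chlorquinaldol libraries had 132, 135 and 129 CPM at 20 μM and 226, 198 and 201 CPM at 50 μM. The groups at 0, 20 and 50 μM did not overlap at any step, while the cGAMP and untreated libraries did. The log2 change was 0.77 ± 0.07 at 20 μM (adjusted p = 1.35e-07) and 1.43 ± 0.07 at 50 μM (adjusted p = 2.58e-11), a 2.70-fold rise. From 20 to 50 μM the further change was 0.66 ± 0.07 (adjusted p = 2.04e-06). With cGAMP it was −0.10 ± 0.07 (adjusted p = 0.374), with a 95% interval of −0.25 to 0.06.

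IFNAR2 (ENSG00000159110, chromosome 21, 33229901 to 33265675), the subunit that docks JAK1 and binds interferon with the higher affinity, had 132, 126 and 138 CPM in the cGAMP libraries, against 120, 115 and 134 CPM in untreated ones. It had 165, 147 and 160 CPM at 20 μM and 193, 169 and 187 CPM at 50 μM. Every chlorquinaldol library was above every untreated one, and the 2 doses were separated by less than 4 CPM at their nearest libraries. IFNAR2 was higher by 0.35 ± 0.08 at 20 μM (adjusted p = 0.0015) and by 0.57 ± 0.08 at 50 μM (adjusted p = 8.81e-06) on the log2 scale. The step between the doses, 0.22 ± 0.08 (adjusted p = 0.0452), was lost in 10 of 16 alternative settings, among them leaving out replicate 2 (0.116) or 3 (0.0547) at 20 μM or replicate 1 (0.0902) or 3 (0.0655) at 50 μM, and on FPKM its sign turned (−0.0072 to −0.0074). IFNAR2 shares exons with the readthrough entry AP000295.1, which held 165 counts with cGAMP, 220 at 20 μM and 265 at 50 μM, against 284 in untreated cells, and with the antisense gene IL10RB-DT, with 673, 974 and 1039 counts against 758. The strand of the reads is not given, so reads of IFNAR2 and IL10RB-DT cannot be told apart.

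Per length, the balance between the receptor subunit genes turned with the chlorquinaldol dose. The ratio of IFNAR1 to IFNAR2 FPKM was 0.682, 0.597 and 0.614 in the cGAMP libraries, against 0.648, 0.648 and 0.602 in untreated ones. It was 0.840, 0.922 and 0.917 at 20 μM and 1.32, 1.26 and 1.27 at 50 μM. IFNAR1 was thus below IFNAR2 in every library outside the 50 μM group and above it in all 3 libraries of that group. The range of the ratio with cGAMP covered the untreated range. The 50 μM ratios also carry a longer IFNAR2 length used for FPKM, 2894 to 3016 bases, against 2707 to 2723 in untreated libraries. Mean IFNAR2 FPKM was 57.9 at 20 μM and 57.6 at 50 μM, while its mean CPM was 157 and 183.

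**Figure D2:**
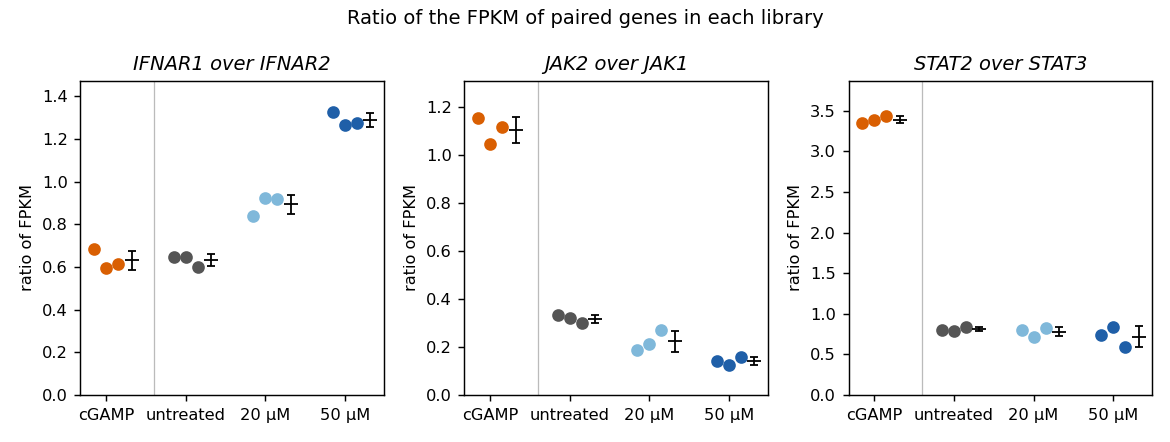
Ratio of FPKM between genes of the same class (y axis, from 0) in each library, by group on the x axis; points are libraries and bars the mean ± SD (n = 3). IFNAR1 over IFNAR2 passed 1 only at 50 μM chlorquinaldol (mean 1.29), JAK2 over JAK1 passed 1 only with cGAMP (mean 1.11), and STAT2 over STAT3 was 3.39 with cGAMP and below 1 in every other library.

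Among the kinase genes, JAK2 moved in opposite directions with cGAMP and with 50 μM chlorquinaldol, and TYK2 and JAK1 rose 1.37-fold and 1.18-fold at 50 μM. TYK2 (ENSG00000105397, chromosome 19, 10350529 to 10380676), the kinase of IFNAR1, had 86.6, 98.3 and 98.5 CPM in the cGAMP libraries, against 110, 112 and 104 CPM in the untreated ones. It had 128, 112 and 114 CPM at 20 μM and 148, 157 and 143 CPM at 50 μM. The cGAMP libraries lay below all untreated ones, yet the change of −0.20 ± 0.08 was not called (adjusted p = 0.075); upper-quartile scaling brought a call (0.0341). TYK2 was higher at 50 μM (log2 0.46 ± 0.08, adjusted p = 6.01e-05) and was not called at 20 μM (0.12 ± 0.08, adjusted p = 0.218). The step between the doses was 0.34 ± 0.08 (adjusted p = 0.00246), and it missed the threshold on FPKM (0.0636 to 0.127).

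JAK1 (ENSG00000162434, chromosome 1, 64833229 to 64966504), the kinase of IFNAR2 and of gp130, differed from untreated cells by at most 0.24 on the log2 scale, less than the other 8 genes at their largest. It had 87.1, 89.2 and 90.0 CPM in the cGAMP libraries, against 103, 89.1 and 94.0 CPM in untreated ones, with overlap. Its levels were 102, 108 and 103 CPM at 20 μM and 111, 108 and 119 CPM at 50 μM. JAK1 was called at 50 μM only (log2 0.24 ± 0.07, adjusted p = 0.00707), and the call was lost without untreated replicate 2 (0.0505) and on FPKM (0.0888 to 0.092). The change was −0.10 ± 0.07 with cGAMP (adjusted p = 0.344) and 0.13 ± 0.07 at 20 μM (adjusted p = 0.13), where the FPKM fits made a call (0.0365 to 0.0385).

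JAK2 (ENSG00000096968, chromosome 9, 4984390 to 5128183) had 137, 131 and 137 CPM in the cGAMP libraries, against 40.1, 42.2 and 39.5 CPM in the untreated libraries. It had 31.8, 36.7 and 41.6 CPM at 20 μM and 21.1, 19.2 and 25.8 CPM at 50 μM. The cGAMP libraries were far above and the 50 μM libraries below every other library, while the 20 μM libraries overlapped the untreated ones. JAK2 rose 3.32-fold with cGAMP (log2 1.73 ± 0.10, adjusted p = 4.88e-10) and fell by 0.88 ± 0.11 at 50 μM on the log2 scale (adjusted p = 1.22e-06). It was not called at 20 μM (−0.15 ± 0.10, adjusted p = 0.247), and the step between the doses was −0.74 ± 0.11 (adjusted p = 4.56e-05). Set against each other, 50 μM chlorquinaldol and cGAMP differed by −2.61 ± 0.11, a level 6.12-fold lower with chlorquinaldol. Per length, JAK2 over JAK1 was 1.15, 1.05 and 1.12 in the cGAMP libraries, against 0.333, 0.320 and 0.301 in untreated ones. The ratio was 0.189, 0.210 and 0.271 at 20 μM and 0.143, 0.123 and 0.158 at 50 μM. The 20 μM values also carry a longer JAK2 length used for FPKM, 6056 to 6772 bases, against 5282 to 5995 in untreated libraries, while the JAK2 CPM of these groups overlapped.

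STAT2 had the smallest adjusted p of the 9 genes after cGAMP and was not called at either chlorquinaldol dose. STAT2 (ENSG00000170581, chromosome 12, 56341597 to 56360155) had 477, 500 and 562 CPM in the cGAMP libraries, against 104, 92.1 and 98.3 CPM in the untreated libraries. It had 99.7, 82.5 and 95.9 CPM at 20 μM and 116, 115 and 96.8 CPM at 50 μM. All 3 cGAMP libraries were above 4 times the highest library of any other group, and the other 9 libraries overlapped. The rise was 5.22-fold (log2 2.38 ± 0.10, adjusted p = 4.79e-12) and held in all 16 alternative settings, and it placed STAT2 at position 217 of 16628 genes ordered by the size of the rise. STAT2 was not called at 20 μM (−0.08 ± 0.10, adjusted p = 0.492, 95% interval −0.29 to 0.12) or at 50 μM (0.15 ± 0.10, adjusted p = 0.174, 95% interval −0.05 to 0.36). Leaving out replicate 3 at 50 μM gave a call there (0.30, adjusted p = 0.0113) and between the doses (0.34, adjusted p = 0.011), and so did replicate 1 at 20 μM between the doses (0.0294). Between the doses the change over all libraries was 0.24 ± 0.10 (adjusted p = 0.0646), and it was also called by DESeq2 (0.0254), with RLE factors (0.0415) and with no filter (0.0429).

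STAT3 (ENSG00000168610, chromosome 17, 42313324 to 42388568) had 160, 168 and 180 CPM in the cGAMP libraries, against 146, 137 and 136 CPM in the untreated ones. It had 158, 138 and 135 CPM at 20 μM and 188, 177 and 186 CPM at 50 μM. The 50 μM libraries were above all untreated and 20 μM libraries, and the cGAMP libraries above all untreated ones. STAT3 was higher by 0.27 ± 0.08 with cGAMP (adjusted p = 0.0174), by 0.39 ± 0.08 at 50 μM (adjusted p = 0.000258), and by 0.04 ± 0.08, not called, at 20 μM (adjusted p = 0.692). The cGAMP call was lost without cGAMP replicate 3 (0.0793), untreated replicate 2 (0.0676) or untreated replicate 3 (0.0632), and on FPKM (0.057 to 0.0931). The step from 20 to 50 μM was 0.35 ± 0.08 (adjusted p = 0.00177), and on FPKM it was not called (0.0546 to 0.0886).

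STAT2 and STAT3 thus differed most in the cGAMP group. The ratio of STAT2 to STAT3 FPKM was 3.35, 3.39 and 3.44 in the cGAMP libraries, against 0.800, 0.790 and 0.842 in untreated ones. With chlorquinaldol it was 0.798, 0.715 and 0.819 at 20 μM and 0.737, 0.833 and 0.586 at 50 μM, which overlapped the untreated range at both doses.

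The inhibitor genes went apart after cGAMP: SOCS1 rose and SOCS3 fell. SOCS1 (ENSG00000185338, chromosome 16, 11254405 to 11256200), a direct inhibitor of JAK kinases and the gene with the ISRE core printed above, had 26, 39 and 43 counts in the cGAMP libraries, against 6, 3 and 5 counts in the untreated libraries. It had 14, 3 and 3 counts at 20 μM and 15, 11 and 9 counts at 50 μM. These are the lowest counts of any member, and the cGAMP libraries stood above all others while 1 of the 3 libraries at 20 μM reached the 50 μM range. In CPM the means were 1.92 ± 0.517 with cGAMP, against 0.238 ± 0.0760 in untreated cells, and 0.347 ± 0.323 at 20 μM and 0.655 ± 0.194 at 50 μM (SD, n = 3 each). SOCS1 rose 7.87-fold with cGAMP (log2 2.98 ± 0.46, adjusted p = 0.000146). Its untreated counts were all below the filter's minimum of 10. In the fit of only these 2 groups it thus passed the filter through its cGAMP counts. At 50 μM the change was 1.43 ± 0.54 (adjusted p = 0.0273), and the call was lost without replicate 1 at 50 μM (0.0854), without untreated replicate 2 (0.0979) or 3 (0.0544), and on FPKM (0.072 to 0.17). At 20 μM the change was 0.54 ± 0.60 (adjusted p = 0.467), and −0.51 without replicate 1, without which the step between the doses was called (2.00, adjusted p = 0.00813) in place of 0.89 ± 0.51 (adjusted p = 0.182). SOCS1 lies inside the gene RMI2 on the other strand without sharing exons.

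SOCS3 (ENSG00000184557, chromosome 17, 78356778 to 78360077), which inhibits gp130 signalling, had 5.02, 4.70 and 5.45 CPM in the cGAMP libraries, against 7.44, 8.20 and 9.88 CPM in the untreated ones. It had 22.7, 24.0 and 18.3 CPM at 20 μM and 27.8, 25.3 and 17.2 CPM at 50 μM. The cGAMP libraries were below and the chlorquinaldol libraries above every untreated library, and the 2 doses overlapped. SOCS3 fell by 0.75 ± 0.18 with cGAMP on the log2 scale (adjusted p = 0.00673), and without cGAMP replicate 2 the adjusted p was at the threshold (0.05). It rose 2.54-fold at 20 μM (log2 1.35 ± 0.16, adjusted p = 2.13e-06) and 2.76-fold at 50 μM (log2 1.46 ± 0.16, adjusted p = 3.73e-07). The doses differed by 0.12 ± 0.15 (adjusted p = 0.582), with a 95% interval of −0.20 to 0.43. The FPKM of SOCS3 over that of SOCS1 was 1.5, 0.959 and 0.926 in the cGAMP libraries, against 9.81, 21.1 and 15.5 in untreated ones. SOCS3 was 13.6, 56.3 and 48.4 times SOCS1 at 20 μM and 12.9, 16.8 and 14.1 times at 50 μM. These ratios divide by SOCS1 values near the floor, from 14, 3 and 3 counts at 20 μM and 6, 3 and 5 in untreated libraries.

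**Figure D3:**
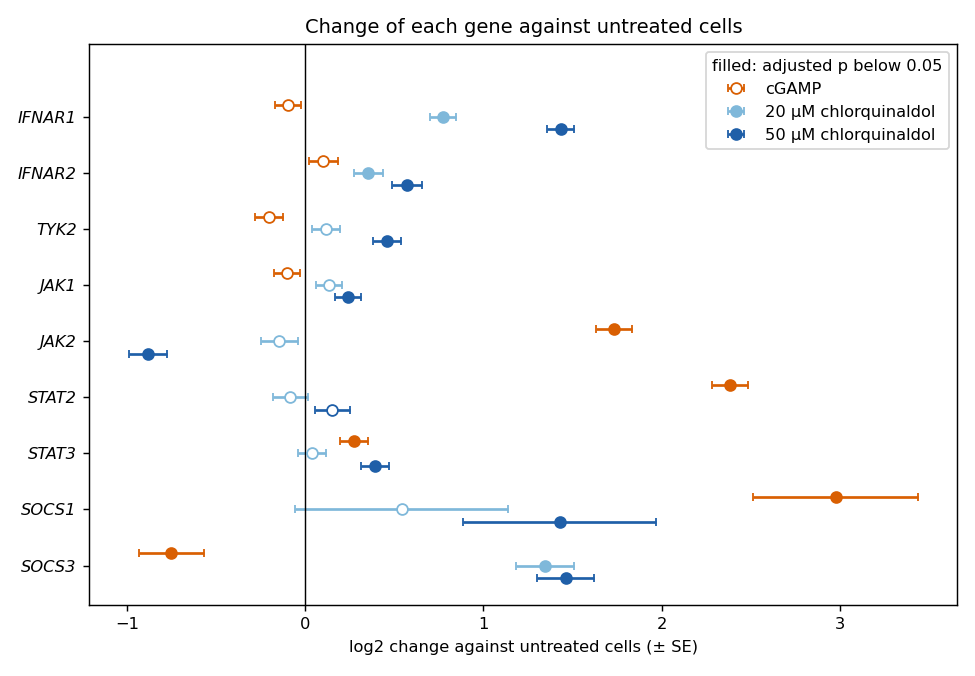
Log2 change ± SE of each of the 9 genes against untreated cells (x axis), with 1 row a gene, for cGAMP and for 20 and 50 μM chlorquinaldol; filled points have an adjusted p below 0.05. STAT2 (2.38) and JAK2 (1.73) lie to the right with cGAMP alone, IFNAR1 lies to the right with chlorquinaldol alone (0.77 and 1.43), and SOCS3 lies on opposite sides with cGAMP (−0.75) and the 2 doses.

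The doses and cGAMP were also set against each other, in comparisons that share libraries with one another and with those above. At 50 μM against 20 μM, 5 members were called, IFNAR1, IFNAR2, TYK2 and STAT3 as higher and JAK2 as lower, where 38.1% of all genes were called (19.1% as higher and 19% as lower). At 50 μM against cGAMP, 8 were called, where 66.7% of all genes were (32% as higher and 34.7% as lower): IFNAR1, IFNAR2, TYK2, JAK1 and SOCS3 as higher, and JAK2, STAT2 and SOCS1 as lower. STAT3 was not called there (0.12 ± 0.08, adjusted p = 0.184, 95% interval −0.04 to 0.29). At 20 μM against cGAMP all 9 were called, where 55.6% of all genes were (27.6% as higher and 28% as lower): IFNAR1, IFNAR2, TYK2, JAK1 and SOCS3 as higher, and STAT3, JAK2, STAT2 and SOCS1 as lower. In the last comparison the IFNAR2 call (0.25 ± 0.08) was lost without cGAMP replicate 2 (0.0861) or replicate 1 at 20 μM (0.0621), and the STAT3 call (−0.23 ± 0.08) without cGAMP replicate 3 (0.0822) or replicate 3 at 20 μM (0.0638), with upper-quartile factors (0.0702) and on FPKM with no filter (0.073). STAT2 was 4.70-fold and SOCS1 2.92-fold lower at 50 μM than with cGAMP, and SOCS3 4.63-fold higher.

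Ordered by mean FPKM, STAT2 led the 9 genes with cGAMP at 131, followed by IFNAR2 at 45.9, STAT3 at 38.7, TYK2 at 32.5, IFNAR1 at 28.97, JAK2 at 23.2, JAK1 at 21.0, SOCS3 at 2.01 and SOCS1 at 1.86. Only the last pair overlapped between neighbours. In untreated cells the order was IFNAR2 at 46.8, TYK2 at 37.9, STAT3 at 32.9, IFNAR1 at 29.5, STAT2 at 26.7, JAK1 at 23.0, JAK2 at 7.33, SOCS3 at 3.51 and SOCS1 at 0.247, and only IFNAR1 and STAT2 overlapped. At 20 μM the leading genes were IFNAR2 at 57.9 and IFNAR1 at 51.7, IFNAR1 overlapped TYK2 at 45.0, and SOCS3 at 8.89 stood above JAK2 at 5.88. At 50 μM IFNAR1 led at 74.3, above IFNAR2 at 57.6 and TYK2 at 53.3, which overlapped, and JAK2 was at 3.60. STAT2 and JAK1 overlapped at both doses, and SOCS1 was the lowest of the 9 in every group.

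The deposited count and FPKM of a gene together give the length the authors' software used for it in each library. SOCS1 and SOCS3 had nearly constant lengths, 1021 ± 37 bases with cGAMP, against 998 ± 12 in untreated cells for SOCS1, and 2499 ± 7 against 2497 ± 4 for SOCS3 (SD, n = 3). IFNAR2 averaged 2856 ± 128 bases with cGAMP, against 2717 ± 8 in untreated cells, and 2791 ± 213 at 20 μM and 2970 ± 66 at 50 μM. IFNAR1 was at 2474 ± 87 bases with cGAMP, against 2700 ± 51 in untreated cells, and 2625 ± 85 and 2626 ± 74 with chlorquinaldol at 20 and 50 μM. For IFNAR2 the libraries at 50 μM (2894 to 3016 bases) lay above the untreated ones (2707 to 2723), and for IFNAR1 the cGAMP libraries (2383 to 2556) lay below them (2641 to 2731). At 20 μM the JAK2 lengths lay above the untreated ones, as given above, and the STAT2 lengths (3544 to 3730) below them (3776 to 3844). These lengths depend on how reads were divided among isoforms, which the gene tables do not show.

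The genes upstream of the members were read from lists of pathway genes. Of 21 interferon genes, only IFNB1 and IFNL1 passed the filter, and they did so through their counts in the cGAMP libraries. That both were called as higher with cGAMP is thus no independent result. Neither was called at either dose, where the counts were too few to judge a change. IFNB1, the main interferon of cells answering through STING, had 708 counts over the cGAMP libraries, against 3 over the untreated ones, and 4 and 6 counts at 20 and 50 μM. IFNL1, a type III interferon that signals through another receptor, had 66 counts with cGAMP, against 0 in untreated cells, and 1 and 0 counts with chlorquinaldol. Over all 21 genes the sums were 781 counts with cGAMP, against 3 in untreated cells, and 5 and 7 at 20 and 50 μM. Without untreated replicate 2, which holds all 3 of the untreated counts, 1 interferon gene was called at 50 μM.

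Of 28 other ligands of JAK-coupled receptors, 7 were tested; 2 were higher and 1 lower with cGAMP, 1 higher and 0 lower at 20 μM, and 6 higher and 0 lower at 50 μM. These are 42.9%, 14.3% and 85.7% of the tested ligands, beside 23.3%, 55.1% and 66.9% of all genes, so the 20 μM share lay below the background, and the median log2 changes were 0.01, 0.31 and 1.59. With the filter at 5 CPM, 2 ligands were tested, of which 0 were called with cGAMP, 0 at 20 μM and 2 at 50 μM. IL15, a growth factor of lymphocytes, was higher with cGAMP (2.54 ± 0.35), at 20 μM (1.75 ± 0.37) and at 50 μM (2.44 ± 0.35) on the log2 scale. It had 108 counts with cGAMP, against 19 in untreated cells, and 63 and 96 at 20 and 50 μM. IL15 thus passed the filter through treated libraries, and its calls are no independent result. LIF, an IL-6 family cytokine, was higher with cGAMP (1.41 ± 0.30) and at 50 μM (2.83 ± 0.27), from 37 counts over the untreated libraries. EBI3, a subunit of IL-27, had 27.6 ± 8.64 CPM at 50 μM, against 0.982 ± 0.591 CPM in untreated cells (log2 4.79 ± 0.29). CLCF1, another IL-6 family ligand, fell by 2.83 ± 0.63 with cGAMP, where it had 4 counts over the libraries, against 32 in untreated cells. It shares exons on the same strand with AP003419.1, which held 500 counts with cGAMP, against 517 in untreated cells, so the CLCF1 value may depend on how reads were divided. IL6 itself did not pass the filter, and OSM rose at 50 μM alone (1.02 ± 0.21).

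Among 25 tested receptor genes of other JAK-coupled cytokines, 7 were higher and 6 lower with cGAMP, 14 higher and 3 lower at 20 μM, and 18 higher and 3 lower at 50 μM. The called shares were 52%, 68% and 84%, beside backgrounds of 23.3%, 55.1% and 66.9%, with median log2 changes of 0.14, 0.40 and 0.91. Both chains of the interferon gamma receptor, which signals through JAK1 and JAK2, moved beside IFNAR1. IFNGR1 had 230 ± 29.3 CPM at 20 μM and 261 ± 15.7 CPM at 50 μM, against 97.1 ± 6.27 CPM in untreated cells (log2 1.25 ± 0.10 and 1.43 ± 0.10). IFNGR2 had 144 ± 17.1 and 344 ± 50.0 CPM, against 68.0 ± 3.85 CPM (log2 1.09 ± 0.12 and 2.34 ± 0.12). The exons of IFNGR2 overlap TMEM50B on the other strand. With cGAMP neither was called (0.21 ± 0.10 and −0.01 ± 0.12). IL10RB, the gene next to IFNAR2 and a subunit of the interferon lambda and IL-10 receptors, fell by 0.25 ± 0.07 with cGAMP and was higher by 0.28 ± 0.07 at 20 μM and by 0.35 ± 0.07 at 50 μM.

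IL6ST, which encodes gp130, was higher in all 3 treatments, by 0.31 ± 0.09 with cGAMP, 0.66 ± 0.09 at 20 μM and 1.12 ± 0.09 at 50 μM, while IL6R, the IL-6 binding chain, was lower at 20 μM (−0.90 ± 0.08) and 50 μM (−0.82 ± 0.08). OSMR, the oncostatin M chain that pairs with gp130, had 4.25 ± 0.942 CPM with cGAMP, against 0.901 ± 0.221 CPM in untreated cells, and 10.8 ± 2.37 and 32.3 ± 3.08 CPM at 20 and 50 μM. Its exons overlap RICTOR on the other strand, a far more abundant transcript. LIFR, the LIF chain, had 232 counts with cGAMP, against 8 in untreated cells, and 20 and 126 counts at 20 and 50 μM. It rose by 4.85 ± 0.36 with cGAMP, 1.32 ± 0.54 at 20 μM (adjusted p = 0.0494) and 4.04 ± 0.39 at 50 μM. The sizes of these changes rest on the few untreated counts. LIFR passed the filter through its cGAMP and 50 μM counts, so its calls there are no independent result. The totals above include it, and its call at 20 μM rests on 20 against 8 counts. CSF3R, the G-CSF receptor, was lower at both doses (−0.93 ± 0.08 and −1.16 ± 0.08), and CSF2RA, the GM-CSF receptor chain that works through JAK2, was higher (0.89 ± 0.09 and 2.01 ± 0.09). With cGAMP CSF2RA was lower (−0.28 ± 0.10, adjusted p = 0.0481). For cGAMP the count of 13 called receptor genes was 8 without cGAMP replicate 1, 7 without untreated replicate 2 and 8 without untreated replicate 3.

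**Figure D4:**
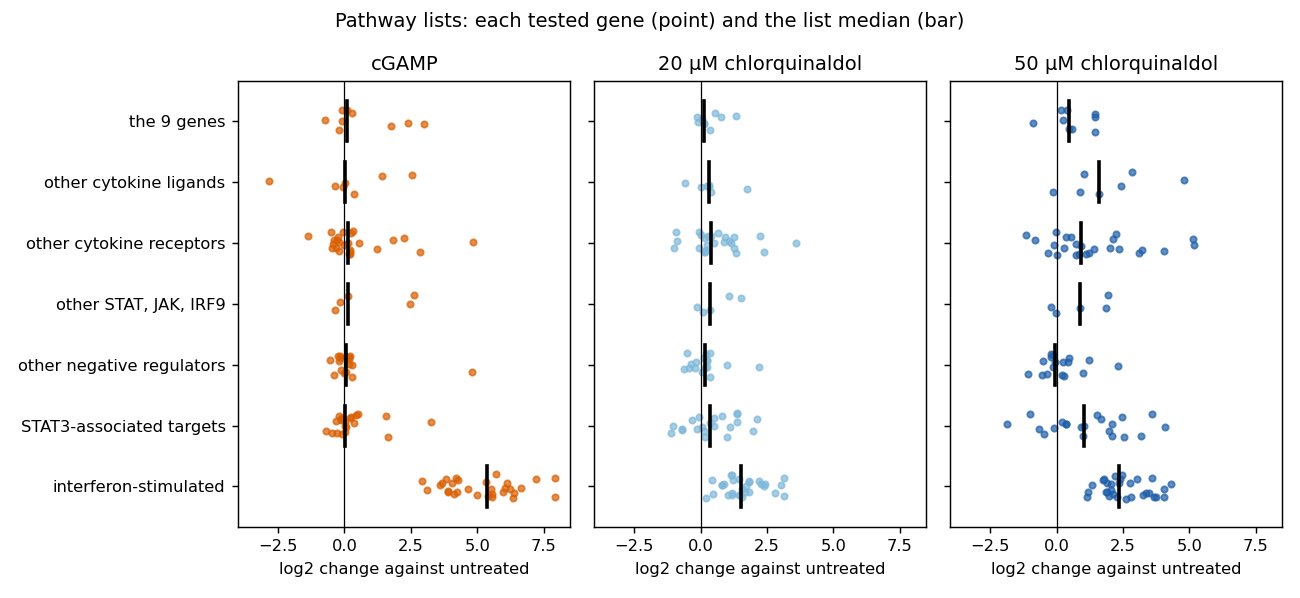
Log2 change against untreated cells (x axis) of each tested gene (points) and the median (bar) for the 9 genes and 6 lists of pathway genes (rows), in 1 panel each for cGAMP, 20 μM and 50 μM chlorquinaldol. The 30 interferon-stimulated genes all lie right of 0 (medians 5.37, 1.52 and 2.36), while the other lists hold points on both sides with cGAMP.

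Of 5 further STAT and IRF9 genes tested, 2 were higher and 1 lower with cGAMP, 3 higher and 0 lower at 20 μM, and 3 higher and 1 lower at 50 μM. That is 60%, 60% and 80% of the list, against 23.3%, 55.1% and 66.9% of all genes, so the share at 20 μM was near the background, and the medians were 0.12, 0.34 and 0.87. IRF9, the DNA-binding partner of STAT2 in ISGF3, had 138 ± 10.2 CPM with cGAMP, against 24.7 ± 3.34 CPM in untreated cells (log2 2.48 ± 0.13). Unlike STAT2, IRF9 was also called at 20 μM with 51.7 ± 8.90 CPM (log2 1.07 ± 0.13) and at 50 μM with 93.4 ± 13.95 CPM (log2 1.92 ± 0.13). Whether the changes of the 2 genes differ was not tested. STAT6, which answers to IL-4, was higher at 20 μM (0.34 ± 0.08) and 50 μM (0.87 ± 0.08), with exons that overlap NAB2 and LRP1 on the other strand, and STAT4 in all 3 treatments at no more than 1.29 CPM. STAT4 had 12 counts over the untreated libraries and passed the filter through treated ones, so its calls are no independent result. STAT5B was lower with cGAMP (−0.36 ± 0.08) and at 50 μM (−0.22 ± 0.08).

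The 30 interferon-stimulated genes of the list, known targets of STAT2 and IRF9, were higher in 30 cases with cGAMP, 29 at 20 μM and 30 at 50 μM, and none was lower, beside background shares of 11.6%, 27.1% and 32.2% called as higher. Their median log2 change was 5.37 with cGAMP, 1.52 at 20 μM and 2.36 at 50 μM. IFIT2, an interferon-induced protein that restrains translation, had 876 ± 58.1 CPM with cGAMP, against 3.64 ± 0.307 CPM in untreated cells, and 25.7 ± 0.491 and 37.3 ± 8.53 CPM at 20 and 50 μM, and it shares exons with LIPA on the other strand. OAS1, which senses double-stranded RNA, had 390 ± 45.0 CPM, against 9.60 ± 0.674 CPM, and 85.8 ± 14.03 and 160 ± 40.5 CPM with chlorquinaldol. DDX60, a helicase of antiviral defence, had 318 ± 20.1 CPM, against 16.8 ± 0.825 CPM, and 53.1 ± 1.09 and 72.6 ± 6.29 CPM. IFITM1 was the gene not called at 20 μM (adjusted p = 0.279). It had 2466 counts there, against 2196 in untreated cells. IFITM1 shares exons on the same strand with IFITM2, which held 2642 counts at 20 μM, against 3364. The IFITM1 value may thus depend on how reads were divided. At the chlorquinaldol doses STAT2 was not called while IRF9 was, and the 21 interferon genes summed to at most 4 counts a library. What raised the interferon-stimulated genes there was not tested.

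Of 17 other negative regulators tested, 2 were higher and 2 lower with cGAMP, 6 higher and 5 lower at 20 μM, and 8 higher and 5 lower at 50 μM. At 23.5%, 64.7% and 76.5% called, this list was close to the shares over all genes (23.3%, 55.1% and 66.9%), and its medians were 0.05, 0.17 and −0.04. USP18, which binds IFNAR2 and blocks its signal, had the largest change of the list in each treatment, with 270 ± 29.4 CPM after cGAMP, against 9.70 ± 0.259 CPM in untreated cells (log2 4.80 ± 0.19), and 44.6 ± 5.86 and 48.5 ± 14.8 CPM at 20 and 50 μM (log2 2.20 ± 0.18 and 2.32 ± 0.18). CISH, a SOCS family gene raised by STAT5, was lower at 20 μM (−0.61 ± 0.12) and 50 μM (−1.06 ± 0.13), and its exons overlap MAPKAPK3 on the other strand. SOCS7 was lower in all 3 treatments (−0.54 ± 0.09, −0.37 ± 0.09 and −0.37 ± 0.09), and SOCS4 at both doses (−0.51 ± 0.13 and −0.55 ± 0.13). SOCS2 was not called in any of the 3. PTPRC, the phosphatase CD45, which can act on JAK kinases, was higher with cGAMP (0.28 ± 0.07), at 20 μM (0.99 ± 0.07) and at 50 μM (1.21 ± 0.07).

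Of 21 tested genes commonly placed downstream of STAT3, 6 were higher and 4 lower with cGAMP, 8 higher and 5 lower at 20 μM, and 16 higher and 4 lower at 50 μM. The shares called were 47.6%, 61.9% and 95.2%, beside 23.3%, 55.1% and 66.9% of all genes, of which the 20 μM share was near the background, and the medians were 0.03, 0.34 and 1.02. PIM1, a survival kinase, had 13.5 ± 1.02 CPM with cGAMP, against 21.9 ± 0.548 CPM in untreated cells (log2 −0.70 ± 0.20), and 86.5 ± 11.3 and 261 ± 96.9 CPM at 20 and 50 μM (log2 1.98 ± 0.19 and 3.57 ± 0.19). BCL6, a transcriptional repressor, was higher at 20 μM (1.36 ± 0.15) and 50 μM (3.19 ± 0.15), and BCL3, a partner of NF-κB, was called at 50 μM alone (2.54 ± 0.25). VEGFA, an angiogenic growth factor, was higher at both doses (1.12 ± 0.10 and 2.09 ± 0.11). NAMPT, an enzyme of NAD synthesis, was higher in all 3 treatments (1.57 ± 0.13, 2.11 ± 0.13 and 4.07 ± 0.14). BIRC5, an inhibitor of apoptosis that marks dividing cells, was lower in all 3 (−0.27 ± 0.08, −1.03 ± 0.08 and −1.86 ± 0.09). The transcription factor genes BATF (−0.68 ± 0.13 and −0.99 ± 0.14) and CEBPD (−0.71 ± 0.10 and −0.48 ± 0.10) were lower at 20 and 50 μM. These genes answer to other factors too, and the STAT3 protein was not measured.

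For each of the 9 genes, the 3 genes with the most similar log2 CPM over the 12 libraries were taken by Pearson correlation among 10768 genes, as a description of 4 groups and not of 12 independent conditions. STAT2 was most like BATF2, GBP4 and ADAR (r 0.994 to 0.996), of which ADAR had 1700 CPM on average with cGAMP, against 465 CPM in untreated cells. JAK2 was most like ENDOD1, CHROMR and NIPSNAP2 (0.980 to 0.981), which were also high with cGAMP and lowest at 50 μM. SOCS1 was most like IRF1, UBFD1 and TINF2 (0.948 to 0.957), and IRF1 had 57.3 CPM with cGAMP, against 26.1 CPM, and 27.7 and 38.2 CPM at 20 and 50 μM. IFNAR1 followed LIMS1, SQLE and TREM1 (0.996 to 0.998). SQLE, an enzyme of cholesterol synthesis, had 271 CPM with cGAMP, against 299 CPM, and 654 and 1245 CPM with chlorquinaldol.

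IFNAR2 was most like HK2, FEM1C and LIMD1-AS1 (r 0.974 to 0.981), TYK2 most like TJAP1, MKNK2 and PPP1R18 (0.984 to 0.989), and JAK1 most like GALNT11, TMEM39A and KDSR (0.954 to 0.964). STAT3 was most like PPP2R2A, ARMH3 and TAPBP (0.954 to 0.964), which shared its pattern of higher levels with cGAMP and at 50 μM than at 20 μM. SOCS3 was most like CSRP1, KIFC3 and FSCN1 (0.985 to 0.990). FSCN1, an actin-bundling protein, had 170 CPM with cGAMP, against 202 CPM in untreated cells, and 322 and 336 CPM at 20 and 50 μM, close to each other as the SOCS3 levels were.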

How the data were processed

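Gene tables of 12 libraries were used, 1 of estimated counts and 1 of FPKM. The authors deposited both, the estimated counts unscaled and the FPKM scaled per length and library. The submitters' processing notes name RSEM, DESeq2 1.26.0 and GRCh38 with no role, and the annotation and strand are not given in the sources used here. Counts were not whole in 42.307% of cells above 0 and were rounded. Entries that name no gene held 0.182% to 0.29% of counts and were left out of the tests. No column of sample values was left out (0). Genes passed filterByExpr at a minimum count of 10, TMM factors (0.9048 to 1.06) scaled the libraries, and the counts were fitted with edgeR 4.0.16 in R 4.3.3 as 1 model of 4 groups, with Benjamini-Hochberg adjustment over 16628 genes (8 residual and 8.99 prior degrees of freedom). Each SE is the log2 change divided by the root of F, without sign, and 95% intervals use the t quantile of both degrees of freedom, unadjusted.

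The members and the lists were chosen with earlier results of these data known, so no count over a list is independent support. Named by rule were all members, up to 3 list genes per direction and comparison with the smallest p, list genes the rule gives outright for their role beside a member (IRF9, USP18 and BCL3 among them), and 3 genes similar to each member with a mean of at least 5 CPM. Not every gene so named is printed. One gene close to this set is not reported here. Positions come from GENCODE 29 on GRCh38. Alternatives comprised each library left out in turn, a replicate block, fits of only the 2 groups compared, upper-quartile or RLE factors, no filter or one at 5 CPM in 3 libraries, DESeq2 1.42.0, and limma 3.58.1 on log2(FPKM + 1) with or without a filter and log2(FPKM + 0.1). The fit was tested on simulated data before use.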

Additional observations from a re-analysis of the deposited data

How the results depend on the processing

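Of 856 values of single members under alternatives, 796 kept direction and side of the threshold. With the sign kept, 35 lost and 11 gained a call, and 14 turned sign. Among those 14, the IFNAR2 values on FPKM at 50 μM against 20 μM lost a call as well. Calls of JAK2, STAT2, SOCS1 and SOCS3 with cGAMP and of IFNAR1, IFNAR2 and SOCS3 at both doses held in every alternative that could be fitted. The count of members called at 50 μM against 20 μM was 2 in place of 5 in the 3 limma fits on FPKM. Leaving out 1 library at a time, members called ranged from 4 to 5 for cGAMP, 3 to 3 at 20 μM, 6 to 9 at 50 μM, 4 to 7 between the doses, 8 to 8 for 50 μM against cGAMP and 8 to 9 for 20 μM against cGAMP. Signs turned, in values not called there, on FPKM with 1, with 0.1 and without a filter: for IFNAR2 with cGAMP (−0.0233, −0.0237 and −0.0233) and, at 50 μM against 20 μM, for IFNAR2 (−0.0072, −0.0074 and −0.0072), JAK1 (−0.0463, −0.0479 and −0.0463) and SOCS3 (−0.0344, −0.0397 and −0.0344). At 20 μM, leaving out 1 library gave −0.1281 to 0.0353 for STAT2, turning without replicate 2, and −0.51 to 0.96 for SOCS1, turning without replicate 1. The cause was not tested. FPKM fits, which use no TMM scaling, moved the median of all genes at 50 μM by −0.11 to −0.14 with a filter and by 0.03 without one. All genes called with cGAMP numbered 2538 with a pseudocount of 0.1 and 2038 with no filter on FPKM, against 3875. Same-numbered libraries did not deviate together (18 pairs, r −0.113 to 0.067), and the replicate block left the counts of members at 5, 3, 8, 5, 8 and 9 in the order above. SOCS1 had too few counts for the filter at 5 CPM, and its values are limited by depth. It also dropped out of the fits of only the 2 groups compared at 20 and 50 μM against untreated cells. There 8 members were tested, with 3 called at 20 μM and 7 at 50 μM.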

Other observations

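JAK2 holds 11 annotated pseudogenes inside its introns on its own strand. They summed to 25, 40 and 20 counts in the cGAMP libraries, against 4, 6 and 3 counts in the untreated ones, and to 5, 2 and 6 counts at 20 μM and 4, 1 and 1 counts at 50 μM. Relative to JAK2 itself this was 11.2 per 1000 JAK2 counts with cGAMP, against 5.45 in untreated cells, and 6.21 and 5.06 at 20 and 50 μM. The part of these counts in the JAK2 values was not tested.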
